A study of Caenorhabditis elegans with 45 samples.

Results

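The genes described here encode the machinery that releases synaptic vesicles in *Caenorhabditis elegans*. They are 10 genes chosen by name: *unc-64*, *snb-1*, *ric-4*, *unc-18*, *unc-13*, *unc-10*, *rab-3*, *snt-1*, *unc-31* and *unc-17*. All 10 were found among the 25985 genes of the deposited table, and all 10 were among the 16925 genes that passed the filter on low values and were tested. Their transcripts were followed across 9 time points of adulthood in the conditionally sterile strains FEM and GEM. Neurons store neurotransmitter in small vesicles that are filled by a transporter, brought to the active zone of the presynaptic membrane, primed, and fused with that membrane when calcium enters. Fusion is driven by SNARE proteins on the vesicle and on the plasma membrane, and the other proteins of the group bring the SNAREs together, hold the vesicle in place or sense calcium. Many of these genes were first found in worms through mutants that move poorly or resist inhibitors of acetylcholinesterase, which gave them the names *unc* (uncoordinated) and *ric*.

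RNA was prepared from whole worms grown on HT115 *E. coli* without FUDR, at the restrictive temperature of both conditionally sterile strains. Sterility at this temperature is complete in FEM and incomplete in GEM. FEM animals carry the gain-of-function allele *fem-3(q20)*, which masculinizes the germline, so that the hermaphrodite makes an excess of sperm and no oocytes around a normal somatic gonad. GEM animals carry *gon-2(q388)* with *gem-1(bc364)*. In these animals formation of the gonad fails with incomplete penetrance. Older GEM animals can hold a degenerate gonad with sperm and oocytes, a few carry embryos, and visibly fertile worms were picked off. Collections of each strain, timed from the start of feeding, were made on day 1 (41 h, then 49 h), on day 2 (65 h, then 73 h) and on day 3 (89 h, then 97 h), and a single time on day 4 (at 117 h), on day 5 (at 137 h) and finally on day 10 (at 257 h). The earliest of these coincides with the end of the last molt, so a difference from day 1 may also hold the last steps of development. There were 23 FEM and 22 GEM libraries. Of the 18 groups 9 held 3 libraries. The other 9 held 2, namely FEM animals of 65 h, GEM animals of 49 and 97 h, and both strains from 117 h on. No wild-type strain was compared, so neither strain is a control for the other, and FEM is set against GEM throughout. The libraries are named by replicate only to tell them apart. Nothing in the sample labels says that replicates came from separate cultures, so p-values measure the spread between these libraries.

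Levels are given as log2(normalized count + 1), where the normalized count is the number of reads of a gene divided by a size factor of its library. A change or difference is a difference on this scale, on which 1 is a doubling for all but weakly expressed genes. Depth was read from the step between low values in each library, which gave 12800000 to 43300000 reads assigned to genes (median 21400000), and between 16670 and 20163 genes were detected. Within their groups, GEM replicate 3 of 41 h was the lowest of 3 libraries in 9 of 10 members (mean deviation from the group means -0.21) and GEM replicate 1 of 49 h the lower of 2 in 8 of 10 (-0.13), the most negative deviations of the 45 libraries. Every member was detected in every library, and the lowest value of any member was 4.99, for *unc-31* in an FEM library at 73 h. Tests were made with limma in a single fit. P-values were adjusted over all genes by the Benjamini-Hochberg method, and the threshold on the adjusted p was 0.05. Day 1 is the mean of the 41 and 49 h groups. Because the RNA came from whole worms, fewer neurons and less RNA per neuron cannot be told apart.

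Levels of neuronal genes and of genes of other tissues were followed with lists of marker genes. Whether the signal of the members or of the neuronal lists came from neurons was not tested. No gene of the neuronal, muscle, oocyte, sperm or germ cell lists was at 0 in every library of a group. The mean level of the 12 broad neuronal genes was 8.69 to 9.24 in FEM groups and 8.80 to 9.35 in GEM groups over the 9 ages. Other tissues moved much further. The 10 body wall muscle genes averaged 11.21 ± 0.62 in FEM at day 10 (SD, n = 2), against 14.21 ± 0.07 at 41 h (SD, n = 3), and in GEM 11.68 ± 0.18 (SD, n = 2) against 13.94 ± 0.11 (SD, n = 3). Their summed normalized count was 25114 to 48783 in the FEM libraries of day 10, against 338687 to 365628 at 41 h, and 43721 to 55567 against 324787 to 431326 in GEM. The 8 germ cell genes averaged 11.05 ± 0.27 in FEM at day 10 (SD, n = 2) against 10.60 ± 0.08 at 41 h (SD, n = 3), and in GEM 13.14 ± 0.11 (SD, n = 2) against 5.82 ± 0.68 (SD, n = 3). Their sum was 17672 to 22558 in FEM and 102931 to 120887 in GEM at day 10. The 11 oocyte genes followed the same course in GEM, with 13.93 ± 0.15 (SD, n = 2) at day 10 against 4.75 ± 0.89 (SD, n = 3) at 41 h, while in FEM they were at 10.27 ± 0.15 (SD, n = 2) against 8.76 ± 0.20 (SD, n = 3). The oocyte sum at day 10 was nonetheless larger in FEM (457257 to 460798) than in GEM (214343 to 321290), because of *perm-2* (17.49 in FEM) and *perm-4* (18.04 in FEM), eggshell genes singled out after their values were seen. The 7 sperm genes, all higher in FEM than in GEM over the 9 ages, had a mean of 9.21 ± 0.56 in FEM animals at day 10, and of 5.69 ± 0.13 in GEM animals (SD, n = 2 each). Of 8 embryo genes 4 passed the filter, and between day 1 and day 10 none of these changed in FEM while 2 rose and 1 fell in GEM. At day 10 only *hlh-27* was at 0 in both GEM libraries. From day 1 to day 10, 8 of 9 intestine and 7 of 8 hypodermis genes fell in each strain, against 22.2% of all genes in FEM and 21.7% in GEM. The part that these tissues play in the values of the members was not tested.

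**Figure D1:**
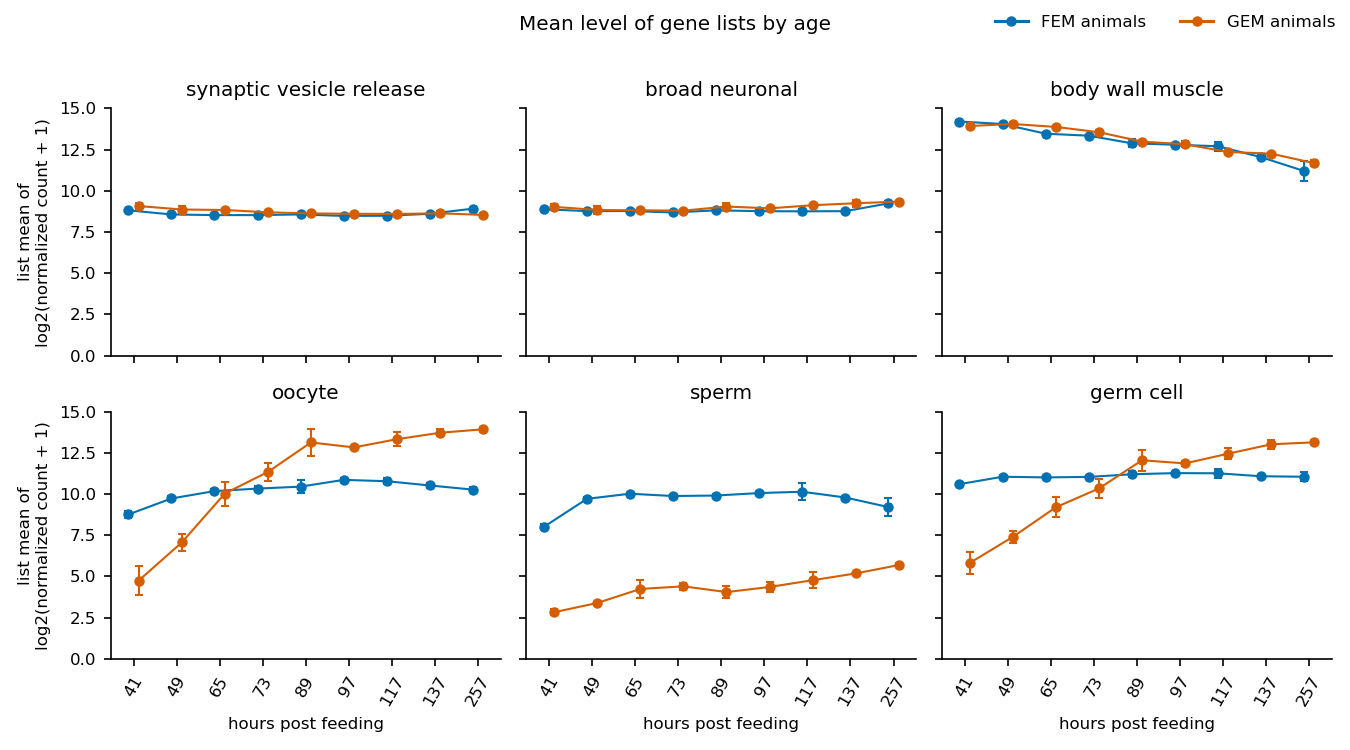
Mean of log2(normalized count + 1) over each list (y axis) at each time point in hours post feeding (x axis, evenly spaced), for FEM (blue) and GEM (orange) animals. Points are means over 2 or 3 libraries and bars are SDs. The synaptic vesicle release genes and the broad neuronal genes stay within a narrow band in both strains, while the body wall muscle genes fall and the oocyte and germ cell genes of GEM climb from 41 h to 257 h.

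Levels of different genes were compared per kilobase of exon. *snb-1* had the highest level of the 10 genes in both strains at both ages, with 10700 ± 1210 normalized counts per kb in FEM animals at day 10 (SD, n = 2) against 4000 ± 358 at day 1 (SD, n = 6). In GEM animals it had 15400 ± 1410 per kb at day 10 (SD, n = 2) against 4430 ± 847 at day 1 (SD, n = 5). *unc-18*, *ric-4*, *rab-3* and *unc-64* formed the next tier, between 242 ± 20.6 per kb (*rab-3* in GEM at day 10; SD, n = 2) and 632 ± 62.1 (*ric-4* in GEM at day 1; SD, n = 5). At the low end *unc-31* had 13.8 ± 4.83 normalized counts per kb in FEM at day 10 (SD, n = 2) against 11.1 ± 2.67 at day 1 (SD, n = 6), and 6.81 ± 1.13 in GEM at day 10 (SD, n = 2) against 13.6 ± 1.37 at day 1 (SD, n = 5). *unc-10*, with 40.3 ± 3.44 per kb in FEM (SD, n = 2) and 28.0 ± 0.399 in GEM (SD, n = 2) at day 10, ranked just above *unc-31* in both strains at both ages.

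Between day 1 and day 10 the members did not move as a block. In FEM animals 3 members rose (*unc-64*, *snb-1*, *unc-10*) and 2 fell (*unc-17*, *unc-18*), and these falls turned into rises when each library was centred on its muscle genes. Of all genes tested, 28.9% rose and 22.2% fell in FEM. In GEM animals 2 members rose (*unc-64*, *snb-1*) and 6 fell (*unc-13*, *unc-17*, *unc-31*, *snt-1*, *ric-4*, *rab-3*), against 55.1% of all genes that rose and 21.7% that fell, and these 6 falls likewise became rises with centring on muscle genes. Without GEM replicate 3 of 41 h and replicate 1 of 49 h, a choice made after seeing the data, *unc-10* (-0.69, limma adjusted p = 0.0127) and *unc-18* (-0.38, limma adjusted p = 0.000702) passed the threshold too, which made 8 falls in GEM. The rise of *unc-64* in GEM turned to -0.75 with quantile normalization. The median change of all genes was 0.26 in FEM and 1.03 in GEM, and that of the members 0.10 in FEM and -0.66 in GEM. In FEM 5 of 10 members lay above the median of all genes, and in GEM only *snb-1* did. The 4 other scalings tried were quantile normalization and centring on the library median, the broad neuronal or the body wall muscle list. Both counts were the same with quantile normalization. Centring shifts all genes of a comparison alike, so it cannot change these counts.

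**Figure D2:**
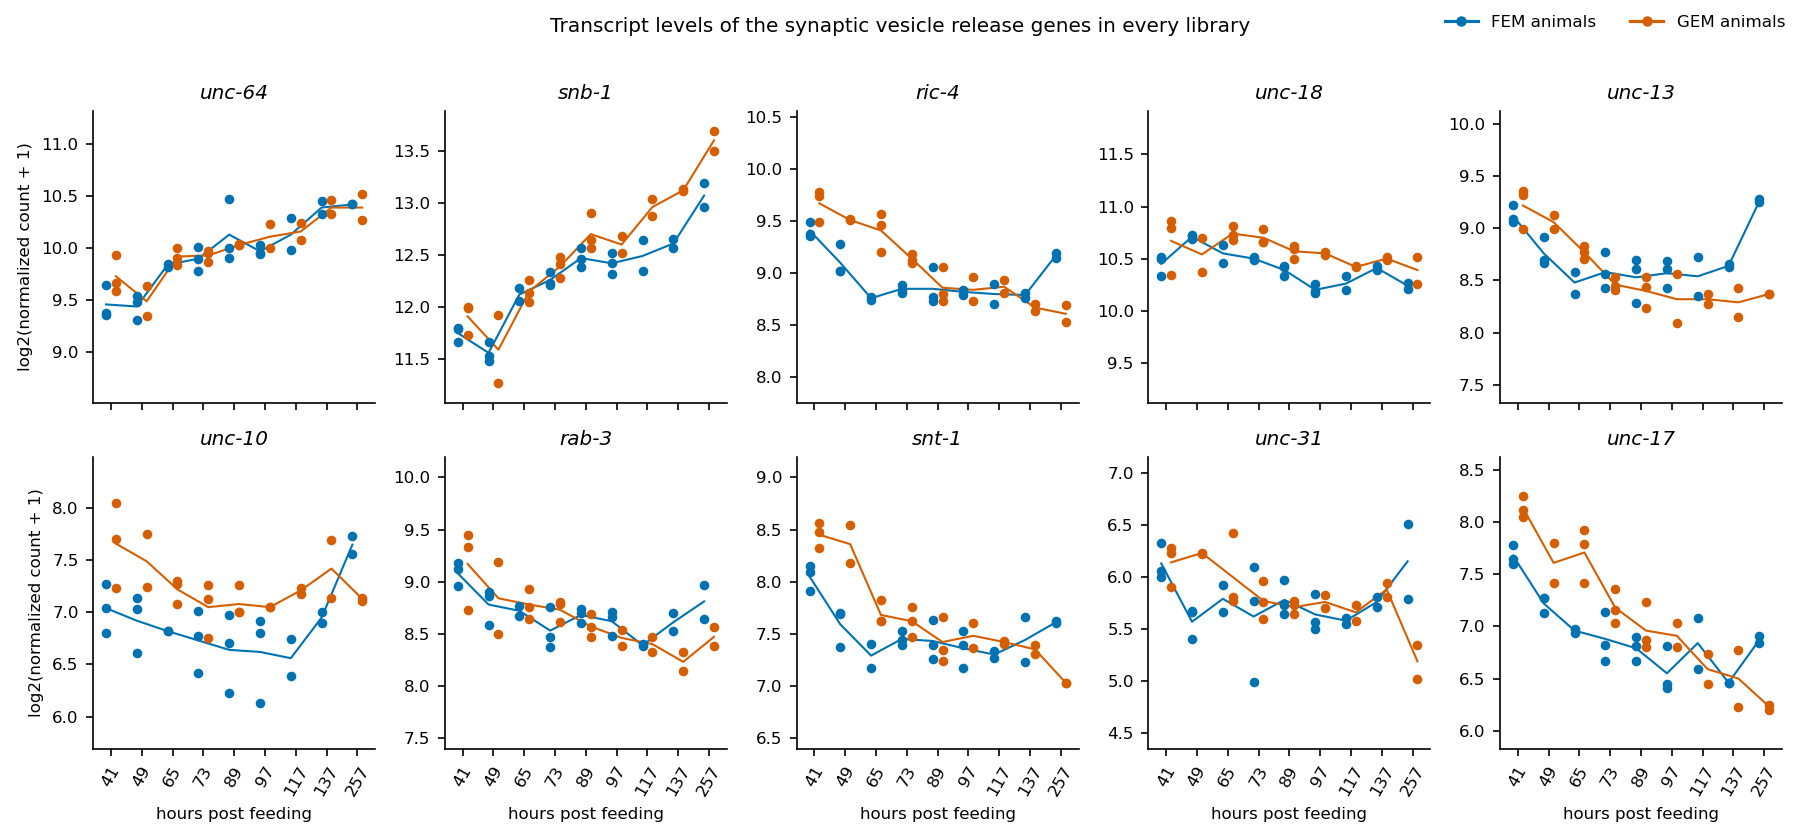
Level of each gene, log2(normalized count + 1) on the y axis with the same span of 2.8 in every panel, at each time point in hours post feeding (x axis, evenly spaced). Points are single libraries of FEM (blue, left) and GEM (orange, right) animals and lines join the group means. *unc-64* and *snb-1* climb in both strains, *snt-1*, *ric-4*, *unc-17* and *unc-13* fall early in both, and at 257 h the FEM points of *unc-13*, *snt-1*, *ric-4*, *unc-31* and *unc-17* stand above the GEM points.

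The 3 SNARE genes did not move together. *snb-1* (WBGene00004897, chromosome V of WBcel235 from 6655562 to 6656501) encodes synaptobrevin, the SNARE of the vesicle membrane. In FEM animals its level was 13.19 and 12.96 in the libraries of day 10, against 11.48 to 11.80 (median 11.66) in the 6 libraries of day 1. In GEM animals it was 13.50 and 13.69 at day 10, against 11.73 and above at 41 h (11.91 ± 0.15, SD, n = 3) and 11.27 and 11.92 at 49 h. In both strains every library of day 10 lay above every library of day 1, and the order of the ages was the same in both, from 49 h at the bottom through 41, 65, 73, 97, 89, 117 and 137 h to 257 h at the top. Neighbouring ages in this order were separated, with no overlap of libraries, in 3 of 8 cases in FEM and 5 of 8 in GEM. The change was 1.42 (standard error 0.13, a 2.67-fold rise, adjusted p = 2.63e-11) in FEM and 1.85 (standard error 0.13, a 3.60-fold rise, adjusted p = 1.53e-14) in GEM by limma with Benjamini-Hochberg adjustment, and it stayed a rise in both under every scaling tried.

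*unc-64* (WBGene00006798, chromosome III from 13277258 to 13283887) encodes syntaxin, a SNARE of the plasma membrane. It shares 64 exonic bases with *set-25* on the opposite strand, whose reads the counting without regard to strand cannot separate. The FEM libraries of day 10 were both at 10.42, against 9.31 to 9.65 (median 9.43) at day 1. The GEM libraries of day 10 were at 10.27 and 10.52, against 9.67, 9.93 and 9.59 at 41 h and 9.35 and 9.64 at 49 h. No overlap was seen between the ages in either strain, and at 137 h the levels had already reached 10.45 and 10.33 in FEM and 10.46 and 10.33 in GEM. The rise of 0.96 in FEM (standard error 0.13, limma adjusted p = 1.52e-07) and of 0.78 in GEM (standard error 0.13, limma adjusted p = 3.04e-06) differed by 0.18 between strains, with a 95% confidence interval of -0.20 to 0.56. *unc-64* was the only member whose FEM and GEM libraries overlapped at each of the 9 ages.

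*ric-4* (WBGene00004364, chromosome V from 10261131 to 10270314) encodes SNAP-25, the other plasma membrane SNARE, and did not follow its partners. In FEM animals its level was 9.15 and 9.19 at day 10, against 9.02 to 9.49 (median 9.32) at day 1. In GEM animals it was 8.69 and 8.53 at day 10, against 9.74, 9.78 and 9.49 at 41 h and 9.51 and 9.52 at 49 h. The ages overlapped in FEM and were separated in GEM. The change was -0.09 (standard error 0.12, limma adjusted p = 0.546) in FEM and -0.99 (standard error 0.12, a 1.98-fold fall, limma adjusted p = 9.31e-09) in GEM. In between, the FEM level had dropped to 8.77 and 8.74 at 65 h and stayed between 8.70 and 9.06 through 137 h, so that the day 10 libraries lay above all FEM libraries of these 6 ages.

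*unc-18* (WBGene00006757, chromosome X from 7682896 to 7686037) encodes the Sec1/Munc18 protein that binds syntaxin and chaperones SNARE assembly. Its group means spanned the smallest range of the members over the 9 ages, 0.51 in FEM and 0.35 in GEM. Its FEM libraries were at 10.27 and 10.21 at day 10, against 10.33 to 10.73 (median 10.60) at day 1, and its GEM libraries at 10.52 and 10.26 at day 10, against 10.79, 10.86 and 10.34 at 41 h and 10.37 and 10.70 at 49 h. All day 10 libraries of FEM lay below those of day 1, and the GEM libraries overlapped. The change was -0.34 in FEM (standard error 0.11, limma adjusted p = 0.01) and -0.22 in GEM (standard error 0.11, limma adjusted p = 0.0811). The FEM call rested on both old libraries, since the adjusted p was 0.0505 without FEM replicate 1 of 257 h and 0.0839 without replicate 2. In GEM the fall passed the threshold when replicate 3 of 41 h (adjusted p = 0.00714), replicate 1 of 49 h (0.0206) or replicate 1 of 257 h (0.0329) was left out.

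Among the priming and active zone genes, *unc-10* rose in FEM and *unc-13* fell in GEM between day 1 and day 10, and the fall of *unc-13* became a rise with centring on muscle genes. *unc-13* (WBGene00006752, chromosome I from 7422785 to 7454116) encodes the Munc13 protein that opens syntaxin and makes vesicles ready for fusion. The FEM libraries of day 10 were at 9.25 and 9.28, against 8.67 to 9.22 (median 8.99) at day 1. The GEM libraries of day 10 were both at 8.37, against 9.32, 9.36 and 8.99 at 41 h and 8.99 and 9.13 at 49 h. The old FEM libraries lay just above the young ones and the old GEM libraries well below. The change of 0.32 in FEM (standard error 0.14) missed the threshold (limma adjusted p = 0.0605, or 0.0434 without FEM replicate 1 of 49 h), and the change of -0.77 in GEM passed it (standard error 0.15, a 1.71-fold fall, limma adjusted p = 1.65e-05).

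*unc-10* (WBGene00006750, chromosome X from 7272317 to 7280322) encodes RIM, a scaffold of the active zone that binds RAB-3 and UNC-13. In FEM animals it was at 7.73 and 7.56 at day 10, the highest of all FEM ages, against 6.61 to 7.27 (median 7.03) at day 1. In GEM animals it was at 7.11 and 7.14 at day 10, against 7.70, 8.05 and 7.23 at 41 h and 7.24 and 7.75 at 49 h. The old libraries lay above all young ones in FEM and below all young ones in GEM. The rise of 0.67 in FEM passed the threshold (standard error 0.23, limma adjusted p = 0.0159), but not without replicate 1 of 257 h (0.58, adjusted p = 0.155). The change of -0.45 in GEM (standard error 0.24) missed it (limma adjusted p = 0.0827), but passed it without replicate 3 of 41 h (-0.56, adjusted p = 0.0294) or replicate 1 of 49 h (-0.58, adjusted p = 0.0394).

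*rab-3* (WBGene00004267, chromosome II from 5721767 to 5727853) encodes a small GTPase of the vesicle membrane, and its exons overlap *damt-1* (25 bases) and also C18A3.16 (85 bases) and C18A3.18 (80 bases). Its libraries overlapped between day 10 and day 1 in both strains, at 8.64 and 8.97 against 8.58 to 9.18 (median 8.93) in FEM, and at 8.38 and 8.56 against 9.33, 9.45 and 8.73 (41 h) and 8.50 and 9.19 (49 h) in GEM. The change was -0.13 in FEM (standard error 0.16, limma adjusted p = 0.537) and -0.54 in GEM (standard error 0.17, limma adjusted p = 0.00472). Without GEM replicate 1 of 257 h the GEM change was -0.45 and no longer past the threshold (adjusted p = 0.0694). No neighbouring ages in the order of its levels were separated in either strain.

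*snt-1* (WBGene00004921, chromosome II from 6810963 to 6816433) encodes synaptotagmin 1, a vesicle protein that binds calcium and triggers fusion. It fell in GEM between day 1 and day 10, except with centring on muscle genes, and did not pass the threshold in FEM. In FEM animals it was at 7.60 and 7.62 at day 10, against 7.37 to 8.15 (median 7.80) at day 1. In GEM animals both libraries of day 10 were at 7.03, against 8.32, 8.48 and 8.56 at 41 h and 8.54 and 8.18 at 49 h. The FEM ages overlapped and the GEM ages were more than 1 apart. The change was -0.21 in FEM (standard error 0.15, limma adjusted p = 0.254) and -1.38 in GEM (standard error 0.16, a 2.61-fold fall, limma adjusted p = 1.33e-09).

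*unc-31* (WBGene00006767, chromosome IV from 12773867 to 12788354) encodes CAPS, which primes the dense core vesicles that carry neuropeptides. It had the lowest level of the members. Its SD within groups averaged 0.23 in FEM, the same as that of *unc-10* and the largest of the members. In GEM the SD of *unc-31* averaged 0.15, below that of *unc-17* (0.20). In FEM animals it was at 6.51 and 5.79 at day 10, against 5.40 to 6.33 (median 5.84) at day 1. In GEM animals it was at 5.35 and 5.02 at day 10, against 6.23, 6.28 and 5.90 at 41 h and 6.23 and 6.22 at 49 h. The ages overlapped in FEM and not in GEM. The change was 0.29 in FEM (standard error 0.23, limma adjusted p = 0.288), where it lay between -0.07 and 0.65 with single libraries left out, and -0.99 in GEM (standard error 0.24, a 1.99-fold fall, limma adjusted p = 0.000317).

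*unc-17* (WBGene00006756, chromosome IV from 3618259 to 3624699) encodes the transporter that loads acetylcholine into vesicles, and of the members its change between day 1 and day 10 was the most negative in both strains. In FEM animals it was at 6.91 and 6.84 at day 10, against 7.13 to 7.78 (median 7.44) at day 1. In GEM animals it was at 6.25 and 6.20 at day 10, against 8.12, 8.25 and 8.05 at 41 h and 7.42 and 7.80 at 49 h. All old libraries lay below all young ones in both strains. The fall was 0.57 in FEM (a change of -0.57, standard error 0.18, limma adjusted p = 0.00826), and without FEM replicate 2 of 257 h it was -0.54 and not past the threshold (adjusted p = 0.0694). In GEM the change was -1.65 (standard error 0.19, a 3.14-fold fall, limma adjusted p = 9.66e-10). *unc-17* shares its locus and 66 exonic bases on the same strand with *cha-1*, which encodes choline acetyltransferase, so a part of its reads may belong to that gene. *cha-1* itself changed by -2.09 in GEM (standard error 0.27, limma adjusted p = 1.42e-08).

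**Figure D3:**
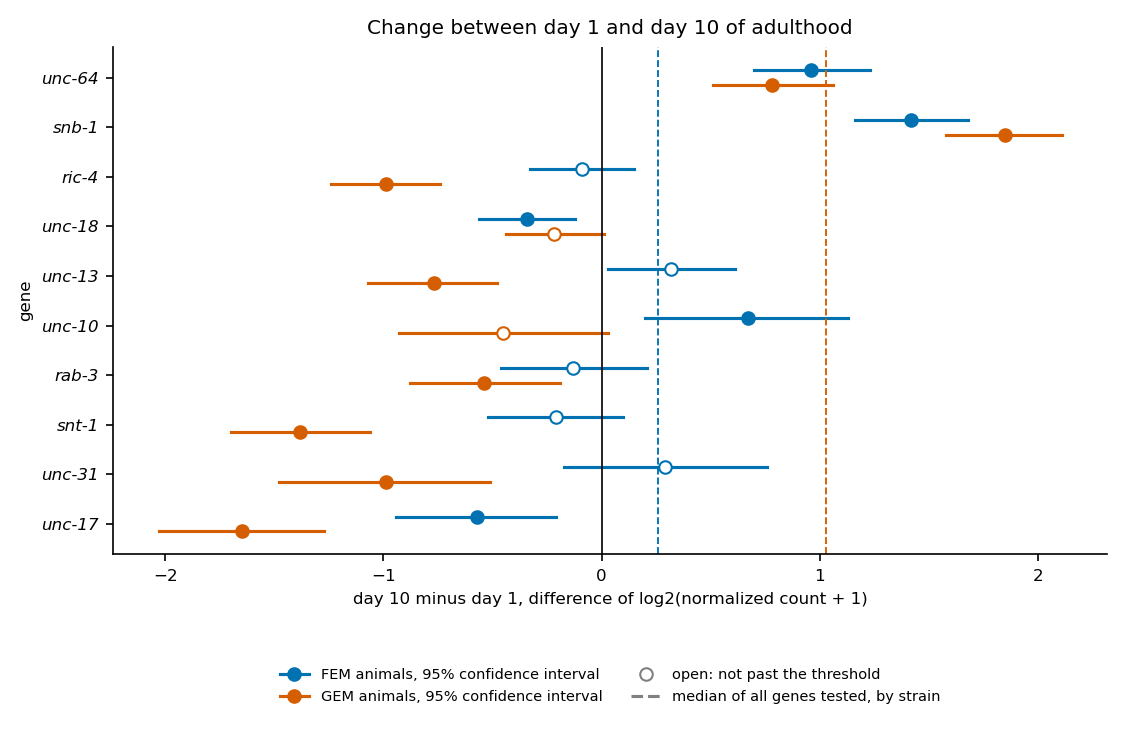
Change of each gene between day 1 and day 10 (x axis, difference of log2(normalized count + 1)), with FEM (blue) above GEM (orange) for each gene. Points are estimates with their 95% confidence intervals from limma, filled where the adjusted p is under 0.05, and dashed lines are the medians of all genes tested, 0.26 in FEM and 1.03 in GEM. *snb-1* and *unc-64* lie to the right of 0 in both strains. The GEM points of *unc-17*, *snt-1*, *unc-31*, *ric-4*, *unc-13* and *rab-3* lie to the left of 0, where centring on muscle genes would move them to the right.

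Whether the strains differed in this change was tested for each member by the difference of the FEM and GEM changes. It was above 0 and past the threshold in 6 members and below 0 in 1, against 14.5% and 47.9% of all genes tested. The 6 were *unc-31* (1.29, standard error 0.33), *snt-1* (1.17, standard error 0.22), *unc-10* (1.12, standard error 0.33), *unc-13* (1.09, standard error 0.20), *unc-17* (1.08, standard error 0.26) and *ric-4* (0.90, standard error 0.17). Their limma adjusted p-values ranged from 2.1e-05 (*snt-1*) to 0.00383 (*unc-10*). In each the FEM level at day 10 was higher relative to day 1 than the GEM level, by 1.86-fold (*ric-4*) to 2.44-fold (*unc-31*). These 6 stayed above 0 and past the threshold with any single library left out and under all 4 other scalings. The median of the members was 0.99 and that of all genes -0.84. All 10 members lay above the median of all genes as deposited and with quantile normalization. Centring shifts all genes alike, so it could not change this position.

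Of the other 4 members, *snb-1* rose more in GEM than in FEM, with a difference of -0.43 (standard error 0.18, limma adjusted p = 0.0397). This call was lost without FEM replicate 1 or 3 of 41 h, replicate 2 of 49 h or replicate 2 of 257 h, and without GEM replicate 3 of 41 h, replicate 1 of 49 h or replicate 2 of 257 h (adjusted p between 0.0526 and 0.208). Its sign turned to 0.59 with quantile normalization, 0.19 with centring on the library median and 0.18 with centring on muscle genes. For *unc-64* the difference was 0.18 (95% confidence interval -0.20 to 0.56), for *unc-18* -0.12 (-0.44 to 0.19) and for *rab-3* 0.41 (-0.07 to 0.89), all without passing the threshold. The difference of *rab-3* passed it without GEM replicate 3 of 41 h (0.52, limma adjusted p = 0.0319) or replicate 1 of 49 h (0.59, limma adjusted p = 0.0236), which were its lowest libraries of those ages. With both of these GEM libraries left out, the difference of *rab-3* was 0.70 (limma adjusted p = 0.00216), that of *snb-1* was -0.22 and not past the threshold (adjusted p = 0.213), and the 6 differences named first all stayed past it.

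The separation at day 10 was seen in the levels of that age alone. At 257 h 5 members were higher and 1 was lower in FEM than in GEM animals, where 21.3% of all genes tested were higher and 40.4% lower. *unc-31* was higher by 0.96 (standard error 0.28, limma adjusted p = 0.00354), *unc-13* by 0.89 (standard error 0.17, limma adjusted p = 4.08e-05), *unc-17* by 0.65 (standard error 0.22, limma adjusted p = 0.011), *snt-1* by 0.58 (standard error 0.19, limma adjusted p = 0.00719) and *ric-4* by 0.56 (standard error 0.15, limma adjusted p = 0.00119). *snb-1* was lower in FEM, with a difference of -0.53 (standard error 0.15, limma adjusted p = 0.00366) that turned to 0.16 with quantile normalization. The FEM libraries all lay above the GEM libraries in 7 members and below them in 1, against 30.1% and 47.9% of all genes. The 7 were the 5 just named with *unc-10* and *rab-3*, whose differences of 0.52 (95% confidence interval -0.05 to 1.09) and 0.34 (-0.07 to 0.75) did not pass the threshold. With 2 libraries a side, calls were lost without FEM replicate 1 of 257 h (*unc-17*, adjusted p = 0.0562, and *unc-31*, 0.126), without FEM replicate 2 (*snb-1*, 0.0632) and without GEM replicate 2 (*unc-17*, 0.0516, *unc-31*, 0.0511, and *snb-1*, 0.0542). Centring on the library median left 2 members higher and 2 lower.

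At the youngest ages the difference ran the other way as deposited, and its size depended on the scaling. The median difference of the members at 41 h was -0.24 as deposited. Under the other scalings it lay between -0.99 (library median) and -0.09 (broad neuronal list). At 41 h 3 members were lower in FEM than in GEM and none was higher, with 13.2% of all genes lower and 39.2% higher in FEM. They were *unc-10* (-0.63, standard error 0.23, limma adjusted p = 0.022), *unc-17* (-0.47, standard error 0.18, limma adjusted p = 0.0289) and *snt-1* (-0.40, standard error 0.15, limma adjusted p = 0.026). The FEM and GEM libraries at 41 h did not overlap in *unc-17* and *snt-1*, with all FEM libraries below all GEM libraries, as in 17.8% of all genes. Each of these calls was lost without some single library of that age, with adjusted p up to 0.158 for *unc-10* (GEM replicate 2), 0.0965 for *unc-17* (GEM replicate 2) and 0.113 for *snt-1* (FEM replicate 3). In the other direction, *unc-18* (-0.38, adjusted p = 0.00284) and *ric-4* (-0.35, adjusted p = 0.0252) passed without GEM replicate 3, and *unc-64* (-0.36, adjusted p = 0.038) passed without FEM replicate 2.

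At 49 h 3 members were again lower in FEM, against 14.4% of all genes, and none was higher, against 43.2%. *snt-1* was at 7.37, 7.70 and 7.69 in FEM, against 8.54 and 8.18 in GEM, a difference of -0.77 (standard error 0.17, limma adjusted p = 0.000236). *unc-31* differed by -0.65 (standard error 0.26, limma adjusted p = 0.0295) and *ric-4* by -0.41 (standard error 0.13, limma adjusted p = 0.0089). The call of *unc-31* was lost without FEM replicate 2 (adjusted p = 0.0948) or either GEM replicate (0.103 and 0.0924), while *unc-10* (-0.82, adjusted p = 0.0323) and *snb-1* (-0.36, adjusted p = 0.0484) passed without GEM replicate 1, and *unc-10* also without FEM replicate 1 (-0.68, adjusted p = 0.0429). In 6 members the FEM libraries all lay below the GEM libraries and in none above, against 21.7% and 48.1% of all genes. The median difference of the members was -0.34 as deposited, and between -1.36 (library median) and -0.27 (broad neuronal list) under the other scalings.

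At 65 h *unc-17* and *ric-4* were lower in FEM, 2 of 10 members against 10.3% of all genes, and none was higher, against 38.3%. *unc-17* was at 6.94 and 6.98 in FEM, against 7.42, 7.79 and 7.93 in GEM (difference -0.75, standard error 0.20, limma adjusted p = 0.00229). *ric-4* was at 8.77 and 8.74 in FEM, against 9.20, 9.46 and 9.57 in GEM (difference -0.65, standard error 0.13, limma adjusted p = 0.000124). Neither gene's libraries overlapped, and 6 members in all had all FEM libraries below all GEM libraries, against 20.9% of all genes, and none above, against 48.2%. The median difference of the members was -0.26 as deposited. It was -1.26 with quantile normalization and turned to 0.15 with centring on muscle genes.

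From 73 to 137 h few members passed the threshold. At 73 and 89 h 0 members passed the threshold in limma in either direction, with 1 and 0 at an unadjusted p under 0.05, where 28.0% and 18.8% of all genes were higher and 10.1% and 25.4% lower in FEM. At 97 h *unc-18* was lower in FEM, at 10.17, 10.19 and 10.26 against 10.56 and 10.53 in GEM (difference -0.34, standard error 0.11, limma adjusted p = 0.0277), 1 of 10 members against 16.3% of all genes. The call was lost without FEM replicate 1 or 2 or either GEM replicate (adjusted p 0.0628 to 0.14). *snb-1* was lower in FEM at 117 h (difference -0.46, limma adjusted p = 0.0143), at 12.64 and 12.35 against 13.04 and 12.87 in GEM, and at 137 h (difference -0.51, limma adjusted p = 0.00513), at 12.65 and 12.57 against 13.13 and 13.11 in GEM. These were the only members past the threshold at those ages, against 28.0% and 36.3% of all genes that were lower in FEM. The call at 117 h was lost without FEM replicate 2 (adjusted p = 0.185) or GEM replicate 1 (0.139). No member passed the threshold as higher in FEM at 97, 117 or 137 h, against 18.6%, 18.1% and 18.8% of all genes. By separation of the libraries, with no test, all FEM libraries lay below all GEM libraries in 2 members and above them in 0 at each of 73, 89 and 97 h, where 16.5%, 26.4% and 35.2% of all genes lay below and 33.9%, 20.9% and 28.0% above. At 117 h 4 members lay below (*unc-10*, *unc-18*, *snb-1*, *snt-1*) and 0 above, against 43.0% and 27.3% of all genes. At 137 h 3 lay above (*unc-13*, *ric-4*, *rab-3*) and 3 below (*unc-10*, *unc-18*, *snb-1*), against 29.3% and 48.6%.

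**Figure D4:**
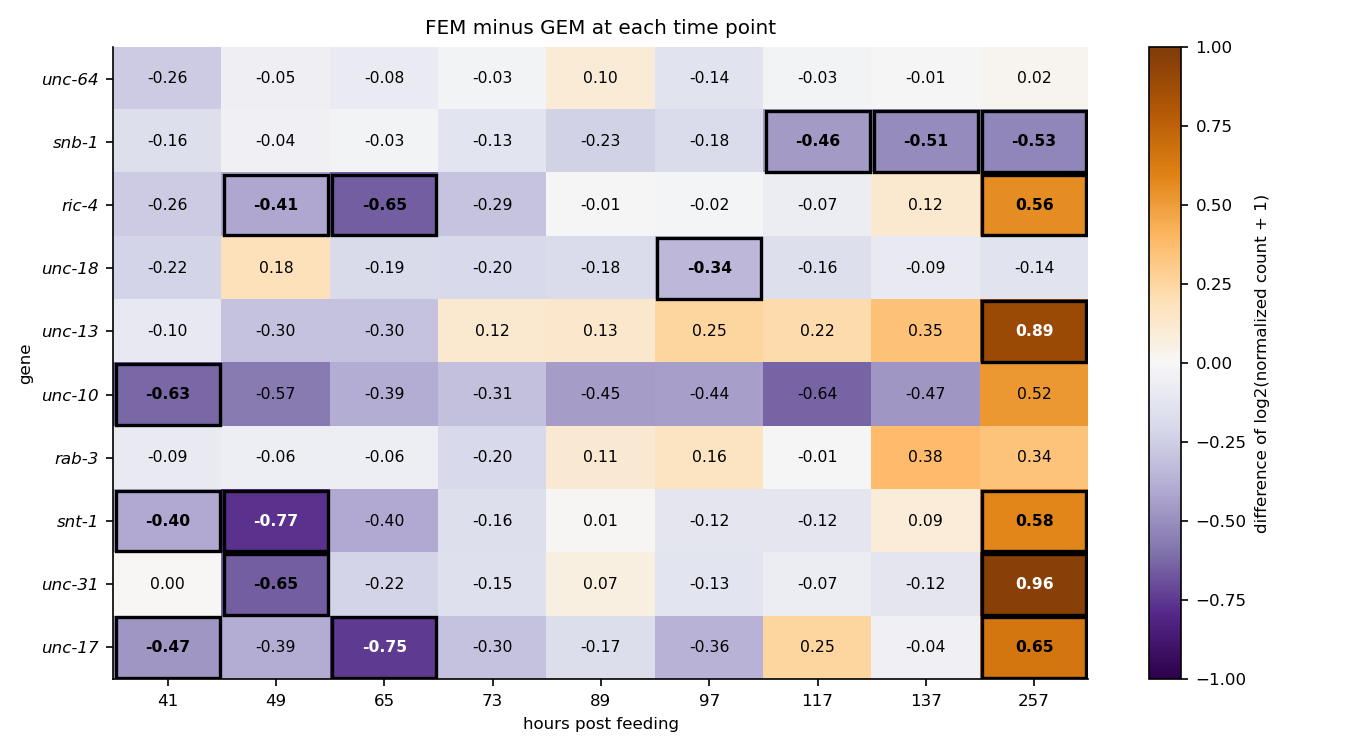
FEM minus GEM difference of log2(normalized count + 1) for each gene (rows) at each time point in hours post feeding (columns), on a colour scale from -1 (purple, lower in FEM) to 1 (orange, higher in FEM). Boxed values passed an adjusted p of 0.05 in limma. The boxes of 41, 49 and 65 h are all negative, and 5 of the 6 boxes at 257 h are positive, the exception being *snb-1*, whose sign at that age turned with quantile normalization.

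Averaged over the 9 ages, 1 member was higher and 6 were lower in FEM than in GEM animals, against 31.1% and 38.6% of all genes tested. The largest were those of *unc-10* (-0.38, standard error 0.09, limma adjusted p = 0.00025) and *snb-1* (-0.25, standard error 0.05, limma adjusted p = 1.85e-05). *unc-17* (-0.18), *unc-18* (-0.15), *snt-1* (-0.14) and *ric-4* (-0.12) were also lower and *unc-13* (0.14) was higher. For *unc-17*, *snt-1* and *ric-4* this average pools opposite differences. Each passed the threshold as lower in FEM at an age up to 65 h and as higher at 257 h. With quantile normalization or centring on the library median all 10 members were lower in FEM, while centring on the broad neuronal list gave 3 higher and 1 lower. For all genes, the share of calls that were higher in FEM was 44.6% as deposited, 25.7% with quantile normalization, 18.4% with centring on the library median, 63.5% with centring on the broad neuronal list and 54.3% with centring on the muscle list. The call of *unc-13* was lost without GEM replicate 1 of 97 h (adjusted p = 0.0515). That of *unc-17* was lost without FEM replicate 2 of 117 h (0.051) or GEM replicate 1 of 137 h (0.0535), and that of *snt-1* without FEM replicate 2 of 65 h (0.052), FEM replicate 2 of 137 h (0.0667), GEM replicate 1 of 49 h (0.0572) or GEM replicate 2 of 97 h (0.0532).

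In FEM some members differed between the 2 ages of day 1. Within day 1, 4 members were lower at 49 h than at 41 h in FEM, against 12.6% of all genes, and 0 were higher, against 23.2%. They were *snt-1* (-0.46, standard error 0.15, limma adjusted p = 0.0167), *unc-17* (-0.45, standard error 0.18, limma adjusted p = 0.0479), *unc-13* (-0.36, standard error 0.14, limma adjusted p = 0.0465) and *ric-4* (-0.31, standard error 0.12, limma adjusted p = 0.0427). In each the libraries of the 2 ages did not overlap. The same held without a call for *unc-31* and *rab-3*, lower at 49 h, and for *unc-18*, higher at 49 h. The share of all genes separated in this way was not counted, so separation does not set these calls apart. Of the 4 calls, all but that of *snt-1* lay close to the threshold. Leaving out any FEM library of these ages left 0 to 2 of the 4 calls: none without replicate 1 or 2 of 41 h, 1 without replicate 3 of 41 h or replicate 1 or 3 of 49 h, and 2 without replicate 2 of 49 h. In GEM 0 members passed in limma (8.07% of all genes were lower and 11.9% higher), with 2 at an unadjusted p under 0.05, and the difference between the strains in this step passed in 0 members (7.42% of all genes lower), with 1 at an unadjusted p under 0.05. In GEM 1 member passed without replicate 3 of 41 h and 3 without replicate 2 of 49 h, and the difference between the strains passed in 1 member without either of these libraries.

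Day 5 was compared with day 1 in the same way. Relative to day 1, 2 members were higher and 3 lower in FEM at 137 h, against 25.4% and 18.3% of all genes, and 2 were higher and 5 lower in GEM, against 52.9% and 20.5%. With centring on muscle genes no member was lower in either strain. The 2 were *unc-64* and *snb-1* in both strains. In FEM those that fell were *unc-17*, at 6.46 in both libraries of 137 h, *snt-1* and *ric-4*. The fall of *snt-1* was -0.38 (standard error 0.15, limma adjusted p = 0.0455), at 7.66 and 7.23 in FEM at 137 h against 7.37 to 8.15 at day 1, so the ages overlapped. It was not past the threshold without any 1 of 5 FEM libraries, and without replicate 2 of 137 h it was -0.16 (limma adjusted p = 0.586). The FEM change exceeded the GEM change in *snt-1* (0.68, standard error 0.22, limma adjusted p = 0.00909), *unc-13* (0.55, standard error 0.20, limma adjusted p = 0.0232) and *ric-4* (0.45, standard error 0.17, limma adjusted p = 0.0273), 3 members against 11.2% of all genes, and fell short of it in none, against 40.4%. No call of these 3 was left without FEM replicate 1 of 137 h and 1 without FEM replicate 2 of 137 h, and 2 were left without replicate 1 (*ric-4* lost) or replicate 2 (*unc-13* lost) of GEM at 137 h. With day 1 taken as 41 h only, none was left.

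Between day 5 and day 10 *unc-13* and *snb-1* rose in FEM, although neither rise was past the threshold with centring on the broad neuronal list, where that of *snb-1* was -0.00. *unc-13* was at 9.25 and 9.28 in FEM at 257 h, against 8.66 and 8.63 at 137 h (0.62, standard error 0.17, limma adjusted p = 0.0104). *snb-1* was at 13.19 and 12.96, against 12.65 and 12.57 (0.46, standard error 0.15, limma adjusted p = 0.0351). These 2 passed the threshold and 0 members fell, against 6.71% and 10.3% of all genes. No member passed in GEM in limma (3.53% of all genes rose and 4.61% fell), with 2 at an unadjusted p under 0.05, and 0 passed in the difference between the strains (0.951% of all genes higher and 2.81% lower), with 5 at an unadjusted p under 0.05. Neither FEM call was left without replicate 1 or 2 of 137 h or replicate 1 of 257 h, and 1 was left without replicate 2 of 257 h.

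Over the 18 group means, 31 of the 45 pairs of members were positively correlated (Pearson), with a median of 0.394. The highest values were those of *snt-1* with *ric-4* (0.936) and of *unc-64* with *snb-1* (0.926), and the lowest that of *unc-17* with *snb-1* (-0.771). These points share strains, ages and libraries, so the values describe these groups only. The genes outside the members whose group means were most like the average of the 10 members were *cdka-1* (0.951), *ndx-1* (0.936), F54G2.1 (0.920), *sad-1* (0.918) and *unc-129* (0.912). *sad-1* encodes a kinase that acts in presynaptic development, and *unc-129* a ligand of the TGF-β family. By Spearman correlation these 5 ranked 41, 68, 68, 4 and 71, so the order among them is not firm. Among the members themselves, *ric-4* (0.877) and *snt-1* (0.842) were closest to the average that they enter, and *unc-64* (-0.277) and *snb-1* (-0.301) farthest.

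The rest of the release pathway was followed with 6 lists, and the changes from day 1 to day 10 are given for each as counts past the threshold. Of all genes tested, 28.9% rose and 22.2% fell in FEM, and 55.1% rose and 21.7% fell in GEM. No list was tested against these shares. Of 10 genes of transmitter synthesis and loading, 2 rose and 5 fell in FEM and 0 rose and 8 fell in GEM, with medians of -0.53 in FEM and -1.54 in GEM. With centring on muscle genes these medians became 2.40 and 0.77. *unc-25*, which encodes the enzyme that makes GABA, changed by -1.44 in FEM and -2.20 in GEM. *cat-2*, the tyrosine hydroxylase of dopamine neurons, changed by -2.19 in FEM. There *snf-11*, a GABA transporter, rose by 1.21 and *tph-1*, the tryptophan hydroxylase of serotonin neurons, by 1.05. Both *cat-2* and *tph-1* were weakly expressed in FEM, so their changes rest on few reads. *cat-2* was at 4.57 ± 0.68 at day 1 (SD, n = 6) and 2.38 ± 0.94 at day 10 (SD, n = 2). *tph-1* was at 3.42 ± 0.48 and 4.47 ± 0.31 in the same libraries.

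Of the 8 active zone and calcium channel genes 0 rose and 3 fell in FEM, against 28.9% and 22.2% of all genes. In GEM 3 rose and 4 fell, against 55.1% and 21.7% of all genes. Centring on muscle genes left no fall in either strain, in this list or in the 4 that follow. *unc-36*, a calcium channel subunit, changed by -0.69 in FEM and -1.94 in GEM. *elks-1*, an active zone scaffold, changed by -0.67 in FEM and 1.93 in GEM. In GEM *rimb-1* (RIM-binding protein) rose by 1.50 and *slo-1*, a potassium channel that limits release, changed by -1.70. Of 13 modulators of release, 1 rose and 3 fell in FEM and 5 rose and 2 fell in GEM. In FEM *rbf-1* (rabphilin) rose by 0.61, *egl-30* (Gq) changed by -0.94 and *dgk-1* (diacylglycerol kinase) by -0.83. In GEM *ric-8* rose by 2.54 and *pkc-1*, a protein kinase C, by 2.19, and *cpx-1* (complexin) changed by -1.60 and *dgk-1* by -1.89.

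Of 7 vesicle proteins and transport genes, 4 rose and 1 fell in FEM and 3 rose and 3 fell in GEM. For this list and the 2 below, the shares of all genes that rose and fell were again 28.9% and 22.2% in FEM and 55.1% and 21.7% in GEM. *sng-1* (synaptogyrin) changed by -1.27 in FEM and -2.16 in GEM, and *unc-16*, a cargo adaptor, rose by 0.65 in FEM and 1.95 in GEM. *unc-104*, the kinesin that carries vesicle precursors, changed by -0.65 in GEM. Of 11 endocytosis genes, 3 rose and 2 fell in FEM and 7 rose and 2 fell in GEM, where *ehs-1* rose by 2.84 and *itsn-1* by 2.64. *ehs-1* and *itsn-1* encode Eps15 and intersectin, which act in endocytosis beyond neurons. All 6 genes of neuropeptide processing rose in FEM (median 0.93), with *pamn-1*, an amidating enzyme, at 1.18 and *sbt-1* (7B2) at 1.12. In GEM 1 of the 6 rose (*pamn-1*, 0.53) and 1 fell (*pgal-1*, -0.81).

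**Figure D5:**
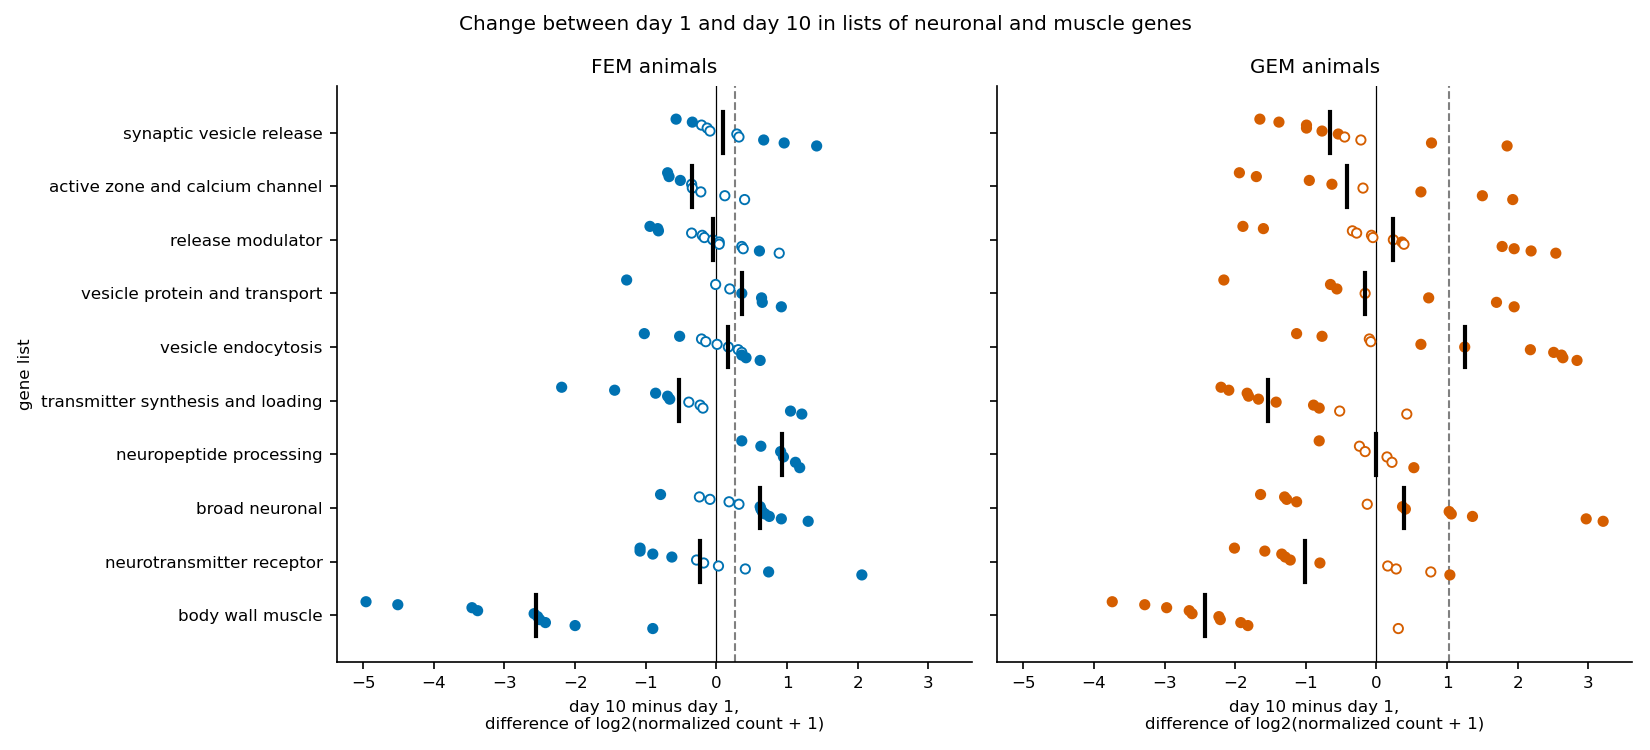
Change between day 1 and day 10 (x axis, difference of log2(normalized count + 1)) of each gene in each list (rows), in FEM animals at left and GEM animals at right. Points are genes, filled where the adjusted p is under 0.05 in limma, black bars are list medians and the dashed line is the median of all genes tested. The spread within the neuronal lists is wider in GEM, and the body wall muscle list lies to the left in both strains, so that centring on it moves every other list to the right.

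As deposited, the median of the broad neuronal list did not fall in either strain, but in GEM it lay below the median of all genes. Of the 12 broad neuronal genes, 7 rose and 1 fell in FEM (median 0.62) and 7 rose and 4 fell in GEM (median 0.39). Of all genes tested, 28.9% rose and 22.2% fell in FEM (median 0.26), and 55.1% rose and 21.7% fell in GEM (median 1.03). The list median in GEM was -0.28 with centring on the library median and -0.99 with quantile normalization. *unc-33*, a CRMP protein of axons, rose by 1.30 in FEM, and *unc-44*, an ankyrin, changed by -0.79. In GEM *maco-1* rose by 3.21 and *unc-76* by 2.97, while *nlg-1* (neuroligin) changed by -1.64 and *sad-1* by -1.30. In FEM *maco-1* was at 9.79 at day 1 and 10.11 at day 10, and *unc-76* at 10.27 and 10.89. The germ cell list also rose in GEM, and which cells the GEM rises of *maco-1* and *unc-76* came from was not tested. On the receiving side, 2 of 10 neurotransmitter receptor genes rose and 4 fell in FEM, and 1 rose and 6 fell in GEM, with no fall left after centring on muscle genes. *unc-49*, a GABA receptor of muscle, changed by -1.08 in FEM, and *lev-1*, an acetylcholine receptor subunit, by -1.58 in GEM. The body wall muscle genes fell in 10 of 10 genes in FEM (median -2.56) and in 9 of 10 in GEM (median -2.42), the scale on which that centring rests.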

How the data were processed

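RNA-seq of whole FEM and GEM worms was used in 45 libraries. The authors trimmed reads with Trim Galore 0.4.4, mapped them to WBcel235 with HISAT2 2.1.0 as non-directional single-end reads, counted them per gene in SeqMonk with isoforms merged, and normalized with DESeq2. The deposited values are natural log values of these normalized counts plus 1, rounded to 2 decimals. The log base is not given in the sources used here. It was read from the low values, which as natural logs were whole multiples of 1 step per library (tolerance 0.006). That step gave the depths, from 12800000 to 43300000 assigned reads, and 1 read was worth 0.411 to 1.91 normalized counts.

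Values were converted to log2(normalized count + 1), with a pseudocount of 1, and the 16925 genes whose deposited values averaged 1 or more were fitted in limma 3.58.1 (R 4.3.3) with 1 mean for each of 18 strain and age groups, a trend on the variance and 22 contrasts. P-values were adjusted over all genes tested by Benjamini-Hochberg (threshold 0.05). Rounding lets replicates hold equal values, so an SD can be 0. The pipeline was tested on simulated data. Groups came from the sample labels; the labels give no batch. Replicates were compared in 36 pairs, none of which was a repeated library (at most 33.14% of genes equal). Gene positions, exon lengths and overlaps are from Ensembl release 115, in which 23897 names were found. The named genes were the 10 members, at most 2 rises and 2 falls past the threshold per list and comparison, and the 5 genes most like the members' average. *cha-1* was added for its shared locus. The members and all lists were chosen with earlier results of these data known. Alternatives were other scalings, a filter of 3 or none, a pseudocount of 8, no trend, only the groups compared, another day 1, and each library left out. A block on consecutive library numbers and leaving out the pair of low GEM libraries of day 1 were added after seeing the data. Sequences were not used here.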

Additional observations from a re-analysis of the deposited data

Results flagged for a closer look

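The change between day 1 and day 10 differed between FEM and GEM animals in 7 members by the limma contrast of the changes (FEM change minus GEM change, Benjamini-Hochberg adjusted). The difference was 1.29 for *unc-31* (adjusted p = 0.00101), 1.17 for *snt-1* (2.1e-05), 1.12 for *unc-10* (0.00383), 1.09 for *unc-13* (2.13e-05), 1.08 for *unc-17* (0.000514), 0.90 for *ric-4* (2.88e-05) and -0.43 for *snb-1* (0.0397). The same contrast between day 1 and day 5 was past the threshold for *snt-1* (0.68, adjusted p = 0.00909), *unc-13* (0.55, 0.0232) and *ric-4* (0.45, 0.0273). Both contrasts share their day 1 libraries. The germ cell and oocyte lists differed in course between the strains over the same ages, while the muscle list fell in both. The part of these lists in the differences was not tested. No group held the 4 libraries that the test used for outlying values needs, so it was not run. GEM replicate 3 of 41 h and GEM replicate 1 of 49 h were the lowest of their groups in 9 and 8 of 10 members, and leaving out both took the difference of *snb-1* to -0.22 (adjusted p = 0.213).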

How the results depend on the processing

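The labels give no replicate numbers that link the groups. In 9 cases FEM and GEM libraries of 1 age carry consecutive library numbers. Their deviations from the group means correlated above 0.1 in only 1 (-0.195 to 0.142 across genes), and the main fit did not pair them. In groups of 2 libraries the deviations mirror each other, so this check cannot exclude a pairing. At 41 h the pairs correlated at 0.042, 0.091 and 0.061, above the values with the other GEM libraries (at most -0.009). With the numbers as blocks, the correlation within blocks was estimated at 0.148. A limma fit with these numbers as a replicate block, added after seeing the data, gave 1 member higher at 49 h in FEM and 1 lower in the difference of the day 5 changes, and other counts of members stayed within 1.5 times. Leaving out both low GEM libraries of day 1, also added then, gave 0 lower in the difference of the day 10 changes. With 2 or 3 libraries per group, calls near the threshold rested on single libraries: leaving out 1 library kept the direction and call of single members in 1017 of the values recomputed, lost the call in 77 and gained one in 14, with no call turned. The 6 positive differences of the day 10 changes (*unc-10*, *unc-13*, *unc-17*, *unc-31*, *snt-1*, *ric-4*) kept direction and call in all 168 recomputed values. Whether a scaling or the deposited one is nearer to RNA per worm was not tested, and causes of the changes below were not tested.

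With each library centred on the muscle list, directions turned between day 1 and day 10 in FEM for *unc-17* (2.35), *unc-18* (2.58), *snt-1* (2.71), *ric-4* (2.83) and *rab-3* (2.80), and in GEM for *unc-10* (1.86), *unc-13* (1.54), *unc-17* (0.66), *unc-18* (2.1), *unc-31* (1.32), *snt-1* (0.93), *ric-4* (1.32) and *rab-3* (1.77). They also turned for *unc-18* between day 5 and day 10 in FEM (0.67) and for the difference of *snb-1* (0.18). Members higher then numbered 10 in FEM and 10 in GEM between day 1 and day 10, 10 and 9 between day 1 and day 5, and 10 and 3 between day 5 and day 10, with 0 lower between day 1 and either age, 0 lower in the difference of the day 10 changes, 0 lower at 49 h in FEM, 1 lower in FEM than GEM over the 9 ages, and 9 calls higher in FEM summed over single ages.

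With centring on the broad neuronal list, the FEM minus GEM average turned for *unc-17* (0.02), *unc-18* (0.04), *unc-64* (0.14), *snt-1* (0.05) and *ric-4* (0.07), and the FEM change between day 5 and day 10 for *unc-64* (-0.44) and *snb-1* (-0.00). Counts were 3 higher and 1 lower over the 9 ages, 15 higher and 4 lower summed over single ages, 1 higher and 0 lower at 49 h in FEM, 6 higher in the difference of the day 5 changes, 0 higher and 2 lower between day 5 and day 10 in FEM, and 5 lower between day 1 and day 10 in FEM.

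With centring on the library median, the average turned for *unc-13* (-0.47) and *rab-3* (-0.55), *unc-18* at 49 h turned to -0.85, and the differences of the day 10 changes turned for *unc-18* (0.50) and *snb-1* (0.19). Counts were 0 higher and 10 lower over the 9 ages, 2 higher and 66 lower summed over single ages, 7 lower at 49 h in FEM, 6 lower in FEM and 1 higher and 8 lower in GEM between day 1 and day 5, 7 higher in the difference of those changes, 1 higher in GEM between day 5 and day 10 and between day 1 and day 10, and 0 lower in the difference of the day 10 changes.

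With quantile normalization, the average turned for *unc-13* (-0.30) and *rab-3* (-0.37), *unc-18* turned at 49 h (-0.47) and at 257 h (0.71), *snb-1* at 257 h (0.16), *unc-64* between day 1 and day 10 in GEM (-0.75), and the differences of the day 10 changes for *unc-18* (1.17) and *snb-1* (0.59). Counts were 0 higher and 10 lower over the 9 ages, 58 lower summed over single ages, 3 lower in the difference of the 49 h changes, 6 lower in FEM and 1 higher and 9 lower in GEM between day 1 and day 5, 8 higher in the difference of those changes, 4 higher in FEM and 1 in GEM between day 5 and day 10, 1 higher in GEM between day 1 and day 10, and 10 higher and 0 lower in the difference of the day 10 changes.

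The share of all called genes that were higher depended on the scaling too. Between day 1 and day 10 it was 56.5% in FEM as deposited, 55.2% with quantile normalization, 54.3% with the library median, 31.8% with the neuronal list and 97.7% with the muscle list. In GEM it was 71.7%, 50.9%, 58.3%, 63.9% and 94.4% in the same order, and in the difference of the changes 23.2%, 48.6%, 40.0%, 22.4% and 39.3%.

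Other settings moved few counts. Taking day 1 as 41 h only gave 5 lower in FEM at day 5, 0 higher in the difference of the day 5 changes and 0 lower in that of the day 10 changes, and as 49 h only 1 lower in FEM at day 5 and 1 at day 10. A filter of 3 gave 1 lower at 49 h in GEM, 1 lower in the difference of the day 5 changes and 1 higher between day 5 and day 10 in GEM. No filter gave 1 higher at 49 h in FEM, 1 lower at 49 h in GEM and 1 higher between day 5 and day 10 in GEM, the last also with a pseudocount of 8. Without a trend 1 was lower at 49 h in GEM and 0 in the difference of the day 10 changes. With only the groups compared, 1 was higher at 49 h in FEM, 0 higher between day 5 and day 10 in FEM, 0 lower in the difference of the day 10 changes and 1 higher summed over single ages.

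Leaving out 1 library gave 0 to 1 members higher over the 9 ages, 3 to 5 higher summed over single ages, 0 to 2 lower at 49 h in FEM and 0 to 3 in GEM, 0 to 1 higher in the difference of the 49 h changes, 0 to 4 higher and 0 to 1 lower in that of the day 5 changes, 0 to 1 higher between day 5 and day 10 in FEM and in the difference of those changes, 0 to 2 lower between day 1 and day 10 in FEM, and 0 to 1 lower in the difference of the day 10 changes.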
